A study of Mus musculus with 10 samples.

Results

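Club cells are the secretory cells of the mouse airway. Here 8 genes linked to them were followed across lungs injured by bleomycin, a DNA-damaging drug that leads to fibrosis. In pieces of whole lung the levels of these genes cannot be assigned to club cells alone. The genes were chosen by symbol from the 33347 genes of the deposited table. They are the secretoglobins Scgb1a1, Scgb3a1 and Scgb3a2, the cytochrome P450 enzymes Cyp2f2, Cyp4b1 and Cyp2b10, the flavin monooxygenase Fmo2, and Por, the reductase that P450 enzymes depend on. All 8 were among the 10844 genes with enough counts to be tested. The lungs came from wild-type (WT) mice given bleomycin and then compared by the bone marrow cells injected into them. In 5 samples the injected cells had high aldehyde dehydrogenase activity (ALDHbr), and in 5 samples they had low activity (ALDHdim). Each value is therefore relative to the other transfer group, as no uninjured lung and no lung without transferred cells was analysed here. No source used here states the doses and times of drug and cells. The samples are numbered, but no label ties each number to its own animal, and p-values therefore cover only the spread among the samples, which may be technical.

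Secretoglobins are small secreted proteins of the airway lining fluid, and Scgb1a1 is the classical marker of club cells. P450 enzymes and flavin monooxygenases are oxidases of the endoplasmic reticulum that add oxygen to drugs, pollutants and other foreign compounds. P450 enzymes take their electrons from Por, whereas flavin monooxygenases take them directly from NADPH. Club cells are a main site of P450 metabolism in the mouse lung and are injured by compounds, such as naphthalene, that their own P450 enzymes activate. Por is present in most cells, so it is less a marker than a partner of this group.

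The stretches of DNA before the start sites were looked at because several of these genes varied together between lungs. RefSeq promoter windows on GRCm38.p6 were matched by symbol for 6 of the 8 genes, all but Scgb1a1 and Scgb3a2. The window of Por, chr5:135688895-135689144, lies inside the gene, which starts at 135670033, and not before its first start. It is counted among the 6 and held no match. In the 250 bases before each start, 5 motifs were searched on both strands. The motif CAAGTG, the core of NKX2 factors, was in the Scgb3a1 and Cyp2f2 windows, 2 of 6, and in 11.6% of 32851 promoter windows. The motif TTGCNNAA, bound by C/EBP factors, was in the Cyp2b10 and Fmo2 windows, 2 of 6, and in 9.56% of windows. The forkhead motif TGTTTNC was in the Scgb3a1 window alone, 1 of 6, and in 17.8% of windows. The antioxidant response element TGACNNNGC and the TATA motif TATAAA were in 0 of 6 windows, against 10.2% and 12.4% of windows. No match overlapped another. The 4 windows that held a match are shown 5′ to 3′ on the strand of the gene, with the matched letters in capitals, and end before the first transcribed base of both RefSeq and GENCODE. A match is a description of letters and shows no binding. On GRCm38.p6 they are chr11:49663345-49663594 (plus strand) for Scgb3a1, chr7:27119705-27119908 (plus strand) for Cyp2f2, chr7:25897408-25897619 (plus strand) for Cyp2b10 and chr1:162898759-162899008 (minus strand) for Fmo2.
Scgb3a1: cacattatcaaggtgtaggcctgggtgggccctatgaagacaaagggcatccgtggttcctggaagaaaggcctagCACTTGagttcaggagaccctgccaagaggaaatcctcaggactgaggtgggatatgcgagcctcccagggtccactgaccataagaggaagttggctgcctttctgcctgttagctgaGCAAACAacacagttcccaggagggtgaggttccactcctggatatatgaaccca
Cyp2f2: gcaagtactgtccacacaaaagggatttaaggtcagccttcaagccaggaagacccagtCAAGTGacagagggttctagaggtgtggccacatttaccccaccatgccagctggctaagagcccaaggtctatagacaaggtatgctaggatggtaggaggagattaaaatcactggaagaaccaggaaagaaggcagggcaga
Cyp2b10: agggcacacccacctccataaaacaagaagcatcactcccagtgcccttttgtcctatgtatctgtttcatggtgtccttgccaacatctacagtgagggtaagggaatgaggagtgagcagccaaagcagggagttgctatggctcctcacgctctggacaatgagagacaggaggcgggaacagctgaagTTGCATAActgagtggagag
Fmo2: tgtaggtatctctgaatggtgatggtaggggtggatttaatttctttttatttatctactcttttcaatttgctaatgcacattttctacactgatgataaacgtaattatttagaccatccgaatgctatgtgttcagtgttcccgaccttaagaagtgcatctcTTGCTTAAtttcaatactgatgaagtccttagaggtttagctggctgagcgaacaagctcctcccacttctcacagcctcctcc
In Scgb3a1 the CAAGTG match lay on the minus strand from −174 to −169 and the forkhead match on the minus strand from −55 to −49, counted back from the RefSeq start. In Cyp2f2 the CAAGTG match lay on the plus strand from −191 to −186. The TTGCNNAA matches lay on the plus strand from −58 to −51 in Cyp2b10 and from −84 to −77 in Fmo2. All positions are counted from the RefSeq start. The stretches shown for Cyp2f2 and Cyp2b10 leave out the last 46 and 38 bases before it.

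Libraries were made by a 3′ method, BRB-seq, in which reads start near the end of the transcript, so counts do not scale with transcript length and levels are given in CPM, counts per 1e6 counts of the library, after TMM scaling. Total counts ranged from 588063 to 1522283 in the ALDHbr libraries and from 1181037 to 2002947 in the ALDHdim libraries. The lowest count of any of the 8 genes in any library was 90, for Cyp2b10 in ALDHbr 3. ALDHbr 3 and ALDHbr 5 detected 24722 and 25377 genes, against at most 21209 in any other library. Markers of lung epithelium were present in each library. The 10 alveolar type 2 markers summed to 40188 to 71112 CPM in ALDHbr and 36592 to 55110 CPM in ALDHdim lungs, and 14 further club cell markers summed to 5574 to 15550 CPM in ALDHbr and 6682 to 11884 CPM in ALDHdim lungs. In pieces of whole lung, fewer cells of a type and less RNA per cell cannot be told apart.

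Secretoglobin levels overlapped between the transfer groups. Scgb1a1, which binds small hydrophobic molecules and dampens airway inflammation in mice, ranked 2 among all tested genes by mean level. It was at 19241, 44491.5, 23266, 15252 and 15441 CPM in ALDHbr lungs 1 to 5 and at 25853, 34349, 27218, 16314 and 13472 CPM in ALDHdim lungs 1 to 5. ALDHbr 2 was the highest of the 10 lungs, ALDHdim 2 the next, and ALDHdim 5 the lowest. The means were 23538 ± 12164 CPM in ALDHbr and 23441 ± 8504 CPM in ALDHdim lungs (SD, n = 5 each), a fold of 1.00 with a 95% interval of 0.63 to 1.61. On GRCm38 Scgb1a1 spans chr19:9083636-9087958 on the minus strand, as a protein-coding gene.

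Scgb3a2, a secretoglobin of conducting airways that is also made in the developing lung, had the largest estimate of the 8 genes. It was at 1452, 5346, 2962, 1289 and 1569 CPM in ALDHbr lungs 1 to 5 and at 1783, 2081, 2692, 1565 and 1268 CPM in ALDHdim lungs 1 to 5. ALDHbr 2 and ALDHbr 3 were the highest lungs, while the other ALDHbr lungs lay within the ALDHdim range. The log2 fold change was 0.42 (SE 0.38), a fold of 1.34 with an interval of 0.75 to 2.39, and it was −0.056 without ALDHbr 2. Scgb3a1, found in secretory cells of larger airways, was at 338, 866, 450, 280.1 and 187 CPM in ALDHbr lungs 1 to 5 and at 358, 743, 634, 402 and 339 CPM in ALDHdim lungs 1 to 5. The groups overlapped, with ALDHbr 2 highest and ALDHbr 5 lowest of all, and the log2 fold change was −0.24 (SE 0.39). Of the remaining secretoglobin genes in the table, Scgb1c1 alone was tested, with mean levels of 26.7 CPM in ALDHbr lungs and 20.5 CPM in ALDHdim lungs.

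Among the P450 enzymes, Cyp2f2, which activates naphthalene in mouse club cells, was the most abundant. It was at 2814, 4778, 2194, 1551 and 1272 CPM in ALDHbr lungs 1 to 5 and at 3109, 4633, 2614, 2060 and 1690 CPM in ALDHdim lungs 1 to 5. The number 2 lung was the highest and the number 5 lung the lowest in each group, and the groups overlapped. The means were 2522 ± 1395 CPM in ALDHbr and 2821 ± 1148 CPM in ALDHdim lungs (SD, n = 5 each), a fold of 0.89 with an interval of 0.52 to 1.53. Gm15883, a predicted gene on the opposite strand of Cyp2f2, held 128 counts in all, against 34241 for Cyp2f2, and no source used here states whether counting used strand.

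Cyp4b1, a P450 that activates the plant toxin 4-ipomeanol in rodent and rabbit lung, varied most between lungs. It was at 701, 593, 278, 217 and 167 CPM in ALDHbr lungs 1 to 5 and at 399, 865, 394, 244 and 202 CPM in ALDHdim lungs 1 to 5. Its highest lung, ALDHdim 2, was 5.17-fold above its lowest, ALDHbr 5, and the interval of its fold between groups was correspondingly wide, 0.42 to 2.05. Cyp2b10, which phenobarbital-like compounds induce in mouse liver, was at 232, 241, 116, 116 and 84.1 CPM in ALDHbr lungs 1 to 5 and at 130, 269, 150, 146 and 120 CPM in ALDHdim lungs 1 to 5. ALDHbr 1, ALDHbr 2 and ALDHdim 2 stood above the other 7 lungs. Its log2 fold change was −0.064 (SE 0.32). The closest relatives of Cyp2b10 in its cluster on chromosome 7, Cyp2b9 and Cyp2b13, share 84.8% and 83.5% of the last 400 bases of the transcript, and they held 6 and 2 counts in all 10 libraries, so few reads were assigned to them.

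Fmo2, the main flavin monooxygenase of the mouse lung, oxidises sulfur and nitrogen atoms of foreign compounds. It was at 1001, 986, 622, 498 and 476 CPM in ALDHbr lungs 1 to 5 and at 607, 1029, 706, 469.8 and 339 CPM in ALDHdim lungs 1 to 5. ALDHbr 1, ALDHbr 2 and ALDHdim 2 were again the highest lungs, and ALDHdim 5 was the lowest. The log2 fold change was 0.18 (SE 0.30), a fold of 1.13 with an interval of 0.72 to 1.78. The mean of its relative Fmo1 was 237 CPM in ALDHbr lungs and 219 CPM in ALDHdim lungs. Fmo5 had a mean of 21.0 CPM in ALDHbr lungs and 19.1 CPM in ALDHdim lungs. The last 400 bases of Fmo2 share 49.5% of their letters with Fmo5 and 42.8% with Fmo1, less than Cyp2b10 shares with Cyp2b9.

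Por was at 273, 299, 132, 149 and 114 CPM in ALDHbr lungs 1 to 5 and at 224, 347, 223, 184 and 159 CPM in ALDHdim lungs 1 to 5. The order of the lungs was close to that of the P450 enzymes, with ALDHdim 2 the highest and ALDHbr 5 the lowest. The log2 fold change was −0.24 (SE 0.29), a fold of 0.84 with an interval of 0.55 to 1.31.

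**Figure D1:**
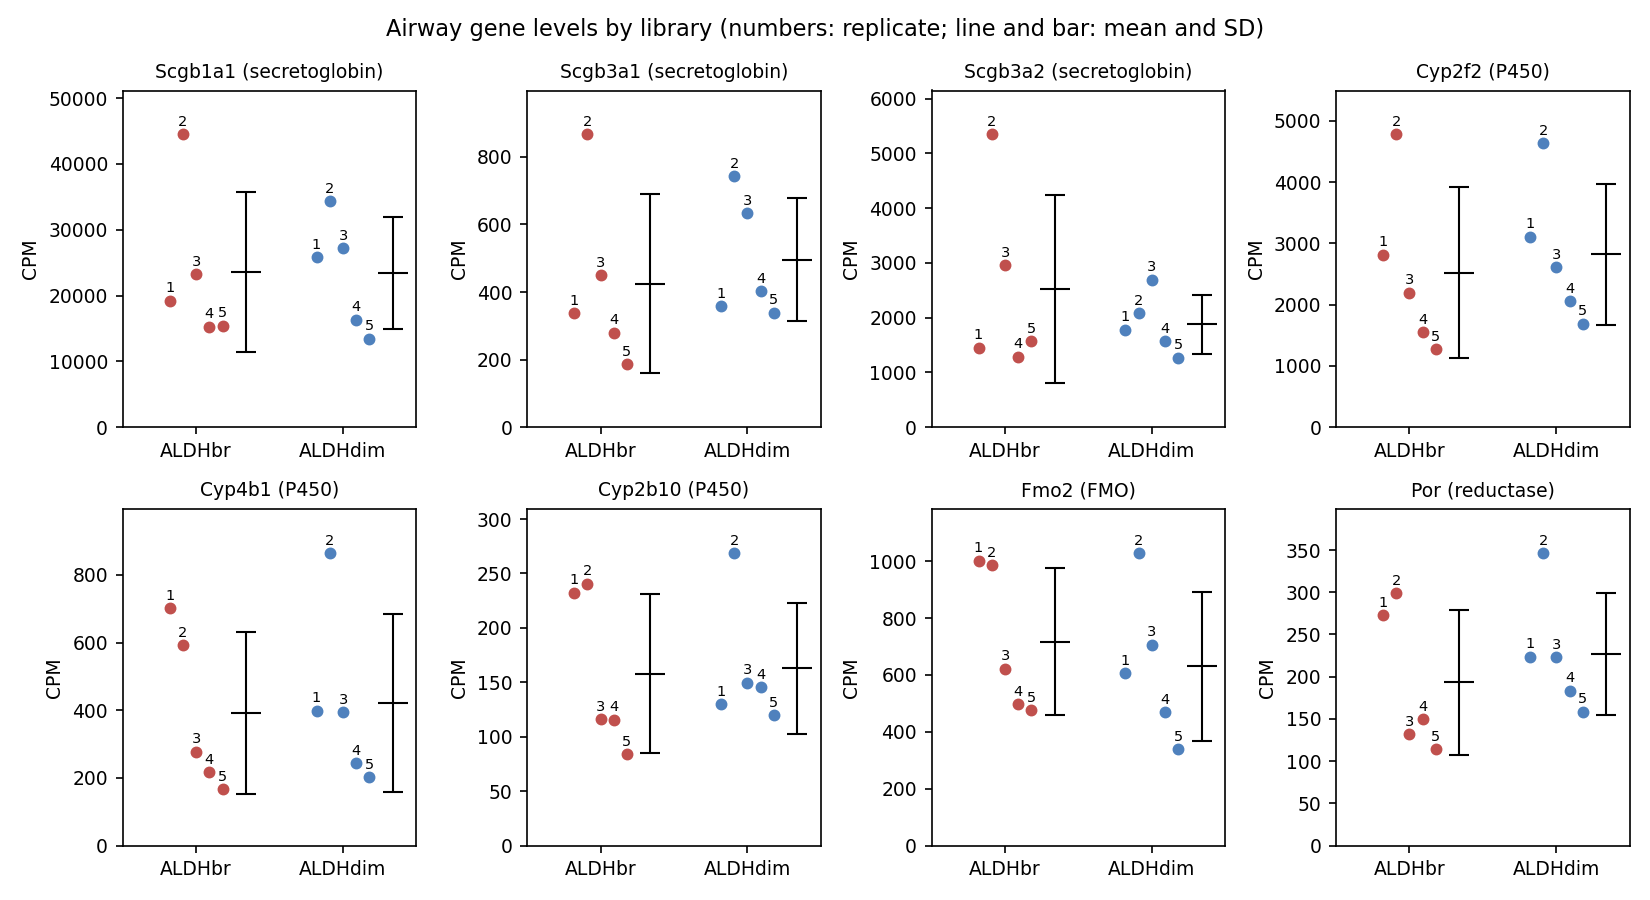
Level of each of the 8 genes in CPM (vertical axis, linear from 0) in the 5 ALDHbr lungs (left, red) and the 5 ALDHdim lungs (right, blue), with points numbered by replicate and the mean and SD drawn beside them. The groups overlap for each gene, and lungs numbered 2 lie at or near the top in both groups.

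No secretoglobin and no oxidase passed the test between transfer groups. Of the 8 genes, 0 had an adjusted p under 0.05 with edgeR's quasi-likelihood test, as had 0 of the 10844 genes tested (0.0%), and the adjusted p was 0.99925 for each of the 8. At an unadjusted p under 0.05 there were 0 of the 8 genes, against 402 of all tested genes (3.71%). DESeq2 and limma-voom called 0 of the 8 genes and 0 of all genes. The groups did not overlap for 0 of the 8 genes, against 0.535% of all tested genes. Estimates were lower in ALDHbr lungs for 5 of the 8 genes, against 48.1% of all tested genes. Secretoglobin estimates were higher for 2 genes and lower for 1, with a median log2 fold change of 0.0058. Estimates of the 4 oxidases (the P450 enzymes and Fmo2) were higher for 1 gene and lower for 3, with a median of −0.088. The median over all tested genes was 0.011. The intervals of Scgb3a1 (0.46 to 1.54), Scgb3a2 and Cyp4b1 reached past 2-fold in at least 1 direction, so a difference of that size in those genes lies within the error.

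Single lungs set the sign of most of these estimates. The log2 fold change of Scgb1a1, 0.0058 over all libraries, was −0.36 without ALDHbr 2, −0.099 without ALDHdim 4 and −0.14 without ALDHdim 5. That of Cyp2f2, −0.16 over all libraries, was 0.0090 without ALDHbr 5 and 0.093 without ALDHdim 2. That of Cyp4b1, −0.11 over all libraries, was 0.34 without ALDHdim 2, 0.086 without ALDHbr 5 and 0.040 without ALDHbr 4. That of Cyp2b10, −0.064 over all libraries, was 0.20 without ALDHdim 2, 0.10 without ALDHbr 5, 0.031 without ALDHbr 4 and 0.027 without ALDHbr 3. Scgb3a1, Fmo2 and Por kept the sign of their estimates whichever single library was left out, and 0 of the 8 genes passed in any of these fits.

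**Figure D2:**
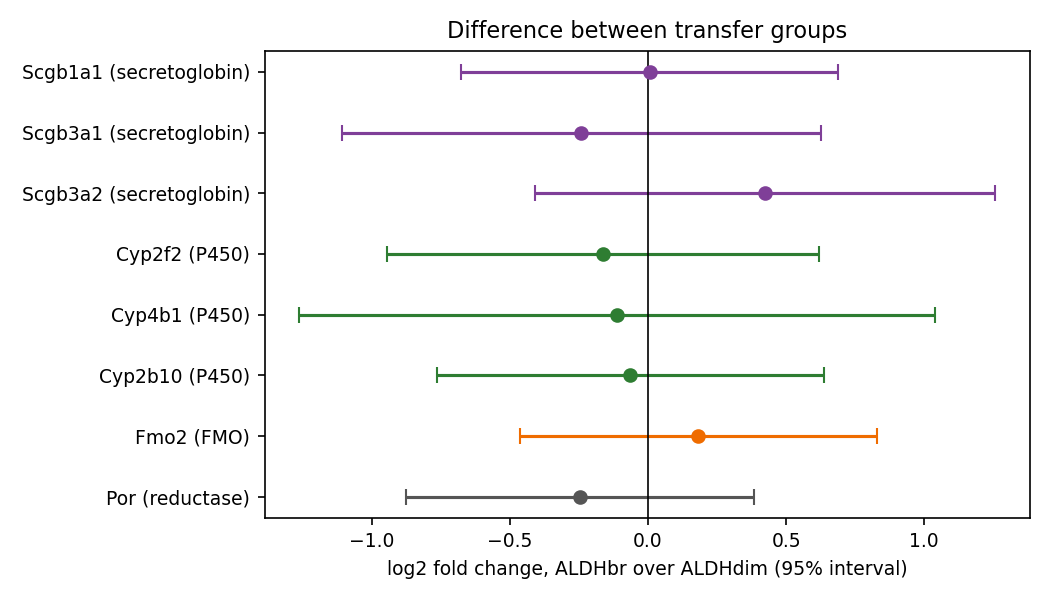
Log2 fold change of each gene, ALDHbr over ALDHdim (horizontal axis), from edgeR over 5 lungs a group, with bars for the 95% interval. All 8 intervals include 0, and Cyp4b1 (−1.26 to 1.04) and Scgb3a2 (−0.41 to 1.26) reach farthest.

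Variation between lungs of the same transfer group was large for these genes. The SD of log2 CPM within groups was 0.60 for Scgb1a1, 0.66 for Cyp2f2, 0.86 for Cyp4b1 and 0.53 for Por, against a median of 0.23 over the 1763 genes at 100 CPM or more. Over all 10 libraries each of the 8 genes had an SD above that of at least 93.0% of those 1763 genes. The high and low lungs recurred from gene to gene. ALDHbr 2 was the highest ALDHbr lung for 6 of 8 genes and ALDHbr 1 for the other 2, Cyp4b1 and Fmo2. ALDHdim 2 was the highest ALDHdim lung for 7 of 8 genes, and ALDHdim 3 was the highest for Scgb3a2. ALDHbr 5 was the lowest ALDHbr lung for 6 of 8 genes, and ALDHdim 5 was the lowest ALDHdim lung for 8 of 8. The 2 high lungs lay at opposite ends of depth, as ALDHbr 2 held the fewest counts (588063) and ALDHdim 2 the most (2002947).

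Across the 10 lungs the 4 oxidases and Por varied together more closely than the secretoglobins did with them, by Pearson's r of log2 CPM. The comparison of the ranges was not tested. There were 28 pairs of genes, each with a permutation p adjusted over the 28 pairs, and 22 pairs had an adjusted p under 0.05 by Pearson's r and 20 by Spearman's rho. The 6 pairs among oxidases had r from 0.84 to 0.94, and the 4 pairs of an oxidase with Por from 0.81 to 0.95. The 3 pairs among secretoglobins had r from 0.76 to 0.86. The 12 pairs of a secretoglobin with an oxidase ran from 0.41 to 0.91, and 7 of the 12 had an adjusted p under 0.05 by Pearson's r and 6 by Spearman's rho. The share of called pairs over all tested genes was not computed, so the counts cannot be read as particular to these genes. Among tested genes at 20 CPM or more, 31 had a higher r with Cyp2f2 than Por, the closest of the other members. For Scgb3a2, the least close, 786 did. Cyp2f2 itself is in both counts, and the other members are in that for Scgb3a2. The values share libraries and their scaling. The permutations treated the 10 libraries as exchangeable, and no r was computed after centring within each replicate number. The part of the replicate number in these p-values was not tested. After centring within each transfer group the ranges were 0.88 to 0.97 among oxidases, 0.92 to 0.97 with Por, 0.87 to 0.88 among secretoglobins and 0.44 to 0.92 between secretoglobins and oxidases.

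Cyp2b10 and Por gave the closest pair. Their r was 0.95 (permutation p = 2e-05, adjusted 0.00056) and their rho was 0.95 (permutation p = 0.00017, adjusted 0.0048). Without ALDHbr 2 and ALDHdim 2, the lungs farthest from the median of Cyp2b10, r was 0.90. Cyp4b1 and Fmo2, an enzyme pair of different families, had r of 0.93 (permutation p = 0.00018, adjusted 0.0013) and rho of 0.90 (permutation p = 0.00092, adjusted 0.0057), and r was 0.88 without ALDHbr 1 and ALDHdim 2, the farthest for Cyp4b1.

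Of the oxidases, Scgb1a1 had its highest r with Cyp2f2, though the difference from the others was not tested. Their r was 0.91 (permutation p = 0.00035, adjusted 0.0014) and their rho 0.89 (permutation p = 0.0013, adjusted 0.0059), and r was 0.79 without ALDHbr 2 and ALDHdim 2. For Scgb1a1 and Cyp2b10, r was 0.69 (permutation p = 0.031, adjusted 0.039) and rho 0.75 (permutation p = 0.017, adjusted 0.030), but r was 0.30 without the same 2 lungs, so that relation rests on them. Scgb3a2 had the lowest r of the secretoglobins with each oxidase and with Por, while its r was 0.86 with Scgb1a1 (permutation p = 0.0015, adjusted 0.0039; rho 0.87, permutation p = 0.0022, adjusted 0.0071) and 0.76 with Scgb3a1 (permutation p = 0.0096, adjusted 0.017; rho 0.77, permutation p = 0.013, adjusted 0.025). Its r was 0.64 with Cyp2f2 (permutation p = 0.043, adjusted 0.051), 0.43 with Cyp4b1 (permutation p = 0.22, adjusted 0.23) and 0.38 with Por (permutation p = 0.29, adjusted 0.29), and its rho was 0.61 (permutation p = 0.065, adjusted 0.079), 0.47 (permutation p = 0.18, adjusted 0.19) and 0.30 (permutation p = 0.41, adjusted 0.41) with those genes. Without ALDHbr 2 and ALDHbr 3 its r was 0.58 with Cyp2f2, 0.48 with Cyp4b1 and 0.50 with Por.

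**Figure D3:**
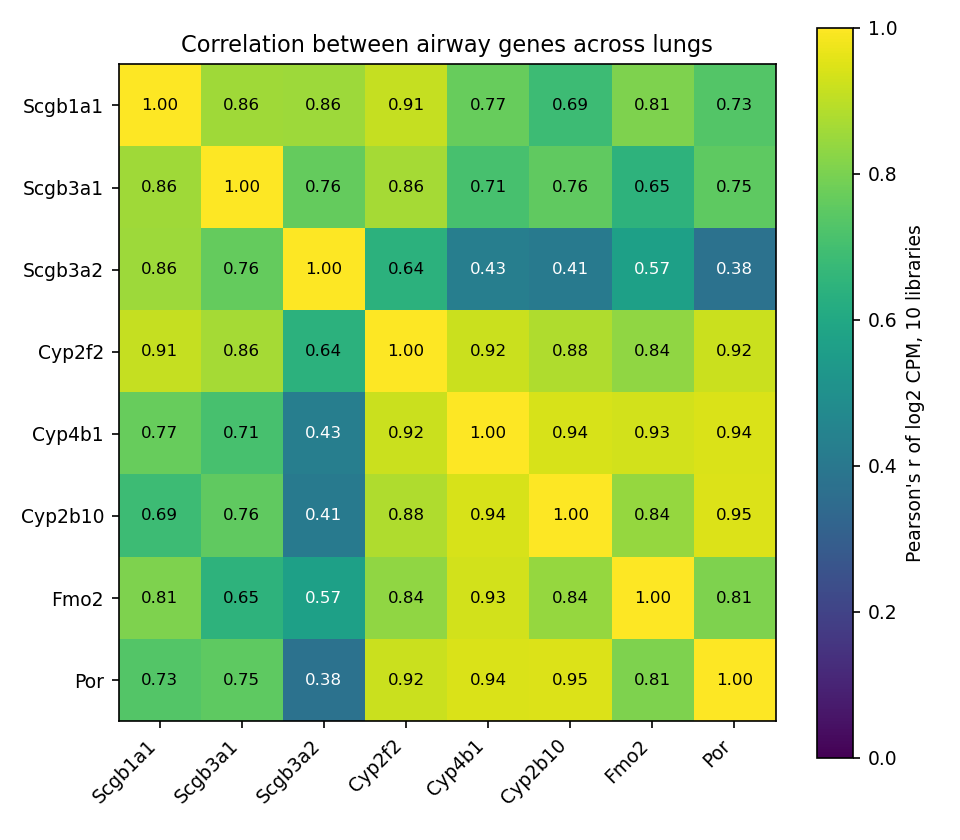
Pearson's r of log2 CPM between each pair of the 8 genes over the 10 lungs, with color from 0 to 1. The block of oxidases and Por at the lower right holds values from 0.81 to 0.95, and the lowest value is 0.38, for Scgb3a2 with Por.

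The number of calls depended on the number 2 lungs. Without both of them, 6 of the 28 pairs had an adjusted p under 0.05, all of them among the oxidases (3 of 6 pairs) or between an oxidase and Por (3 of 4 pairs). Pairs among oxidases then had r from 0.69 to 0.89, pairs among secretoglobins from 0.66 to 0.81 with 0 of 3 called, and pairs of a secretoglobin with an oxidase from −0.013 to 0.79. With 8 lungs left, a given r has a larger p than with 10. Markers of several other cell types were high in these lungs, and others were low. The 10 alveolar type 2 markers summed to 71112 CPM in ALDHbr 2 and 55110 CPM in ALDHdim 2, the highest of their groups. The 7 endothelial markers summed to 2222 CPM in ALDHbr 2, the second highest of its group, and to 2868 CPM in ALDHdim 2, the highest of its group. The 12 ciliated cell markers summed to 2817 CPM in ALDHbr 2 and 2623 CPM in ALDHdim 2, also the highest of their groups. Sums weight abundant genes most. By the mean of centred log2 CPM over its genes, the ciliated list was at 0.16 in ALDHdim 2, below 0.29 in ALDHdim 4, and the alveolar type 2 list at 0.25 in ALDHdim 2, below 0.26 in ALDHdim 1. The 6 macrophage markers summed to 1336 CPM in ALDHbr 2, the highest of its group, and to 1002 CPM in ALDHdim 2, the lowest of its group. The few counts of basal and neuroendocrine markers were lowest in the number 2 lung of each group, with basal sums of 7.82 CPM in ALDHbr 2 and 10.1 CPM in ALDHdim 2. Their part in the correlations was not tested.

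Secretoglobins and oxidases were also set against each other within each lung, and their proportion varied between lungs. The ratio of Scgb1a1 to Cyp2f2 was 6.84, 9.31, 10.6, 9.83 and 12.1 in ALDHbr lungs 1 to 5 and 8.31, 7.41, 10.4, 7.92 and 7.97 in ALDHdim lungs 1 to 5. ALDHbr 1 had the lowest ratio and ALDHbr 5 the highest, so the ALDHdim range lay inside that of ALDHbr. On the log2 scale the ratio averaged 3.26 ± 0.31 in ALDHbr and 3.06 ± 0.19 in ALDHdim lungs (SD, n = 5 each), a difference of 0.20 with an exact two-sided permutation p of 0.24, where the smallest p the design allows is 0.0079. Without ALDHbr 1 the difference was 0.32 with an exact permutation p of 0.040, and without both ALDHbr 3 and ALDHbr 5, the libraries with the most detected genes, it was 0.035 with an exact permutation p of 0.80.

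ALDHbr 1 stood farther from the other lungs in ratios to other oxidases. The ratio of Scgb1a1 to Cyp4b1 was 27.4 in ALDHbr 1, against 70.2 to 92.2 in the other ALDHbr lungs, while in ALDHdim lungs it was 39.7 in ALDHdim 2 and 64.8 to 69.1 in the others. The ratio of Scgb1a1 to Fmo2 was 19.2 in ALDHbr 1, against 30.6 to 45.1 in the other ALDHbr lungs, and 33.4 to 42.6 in ALDHdim lungs. The ratio of Scgb3a2 to Cyp4b1 was 2.07 in ALDHbr 1, against 5.93 to 10.7 in the other ALDHbr lungs, while in ALDHdim lungs it ran from 2.41 in ALDHdim 2 to 6.84 in ALDHdim 3. The ratio of Scgb3a1 to Cyp4b1 was 0.48 in ALDHbr 1, against 1.11 to 1.62 in the other ALDHbr lungs, while in ALDHdim lungs it was 0.86 in ALDHdim 2, 0.90 in ALDHdim 1 and 1.61 to 1.68 in the others. ALDHbr 1 and ALDHdim 2 had the lowest ratios of all 3 secretoglobins to Cyp4b1. The highest ratios were in ALDHbr 5 for Scgb1a1, ALDHbr 3 for Scgb3a2 and ALDHdim 5 for Scgb3a1.

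As a summary, each class was scored as the mean over its genes of log2 CPM centred per gene. The secretoglobin score minus the oxidase score was −0.93, 0.41, 0.48, −0.055 and 0.15 in ALDHbr lungs 1 to 5 and −0.11, −0.42, 0.35, 0.039 and 0.090 in ALDHdim lungs 1 to 5. The group means differed by 0.020, against an SD of 0.57 within ALDHbr and 0.28 within ALDHdim lungs. No p is given for a score over chosen genes. In ALDHbr 1, where the score was lowest, the 7 fibroblast markers summed to 5550 CPM and the 7 endothelial markers to 2557 CPM, each the highest of the ALDHbr lungs. In ALDHdim 2, the next lowest, they summed to 5039 and 2868 CPM, each the highest of the ALDHdim lungs. By the mean of centred log2 CPM over its genes, the endothelial list was also highest there among ALDHdim lungs, at 0.76, but the fibroblast list was at 0.026, below ALDHdim 1 (0.17) and ALDHdim 4 (0.16). In ALDHbr 2 the fibroblast and endothelial sums were 5420 and 2222 CPM, the second highest of the ALDHbr lungs. Its secretoglobin score minus oxidase score was nevertheless 0.41. The part of fibroblasts and endothelial cells in the score was not tested.

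**Figure D4:**
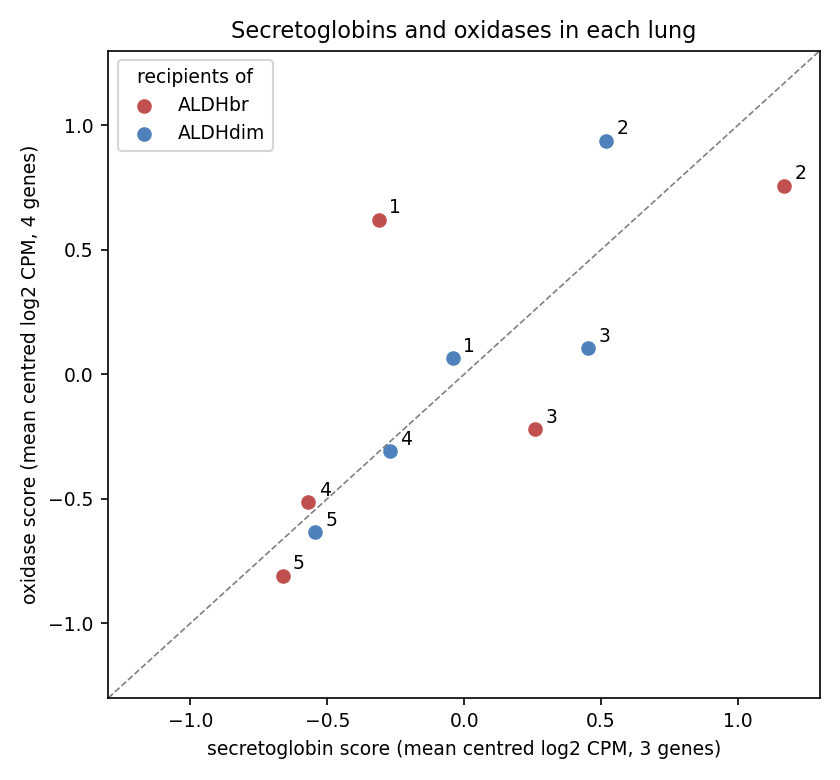
Oxidase score (vertical axis) against secretoglobin score (horizontal axis), both as mean centred log2 CPM, for ALDHbr lungs (red) and ALDHdim lungs (blue), numbered by replicate, with equal scores on the dashed line. ALDHbr 1 lies farthest above the line, with a secretoglobin score of −0.31 and an oxidase score of 0.62.

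The genes whose levels ran most like a given member were taken from 7656 other tested genes at 20 CPM or more, by Pearson's r of log2 CPM over the 10 libraries, as a description of these lungs. Scgb1a1 was followed most closely by Pon1 (a paraoxonase, r = 0.98), Hacd3 (an enzyme of very long fatty acid synthesis, 0.97), Cbr2 (a carbonyl reductase abundant in mouse lung, 0.97), Atf5 (a transcription factor of stress responses, 0.97) and Sftpc (a surfactant gene of alveolar type 2 cells, 0.97). Cyp2f2 was followed by Selenbp1 (a selenium-binding protein, 0.97), Inafm1 (0.96), Foxa1 (a forkhead factor of airway epithelium, 0.96), Ces1d (a carboxylesterase, 0.96) and Zrsr1 (a splicing factor gene, 0.96). Fmo2 was followed by Fibin (0.97), Septin4 (a septin, 0.97), Cav1 (caveolin, abundant in endothelium and alveolar type 1 cells, 0.97), Lrat (an enzyme that stores retinol, 0.97) and Sult1a1 (a sulfotransferase, 0.97). The 3 lists shared no gene.

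Other genes of drug metabolism did not separate the groups either. Of 21 further oxidases and partners, 17 were tested, with 6 higher and 11 lower estimates, 0 past the threshold and a median log2 fold change of −0.043. Over all tested genes 48.1% had a lower estimate. Cyp2a5, a P450 that oxidises nicotine and coumarin in mice, averaged 73.2 ± 40.6 CPM over ALDHbr lungs and 118 ± 48.0 CPM over ALDHdim lungs (SD, n = 5 each), and its log2 fold change was −0.76 (SE 0.38). Cyp2s1, an epithelial P450, differed by −0.29 (SE 0.17), and Cyp2e1, which oxidises ethanol, by 0.61 (SE 0.38) with 19.2 CPM in ALDHbr lungs and 11.7 CPM in ALDHdim lungs. Cyp1b1, a P450 under the aryl hydrocarbon receptor, differed by −0.44 (SE 0.30).

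Of 21 conjugating and reducing enzymes, 18 were tested, with 8 higher and 10 lower estimates, 0 past the threshold and a median of −0.018. Gstt1, a glutathione transferase, differed by 0.32 (SE 0.14), Cbr1, a carbonyl reductase, by −0.23 (SE 0.16), Sult1a1 by 0.36 (SE 0.32) and Aldh1a1, a retinaldehyde dehydrogenase, by −0.18 (SE 0.21). Of these, Gstt1 alone had an unadjusted p under 0.05. Of 14 transcription factors and receptors that act on these genes or in airway epithelium, 11 were tested, with 2 higher and 9 lower estimates, 0 past the threshold and a median of −0.094. The shares over all tested genes were 48.1% with a lower estimate and 3.71% with an unadjusted p under 0.05. Cebpd, a C/EBP transcription factor, was the 1 regulator with an unadjusted p under 0.05, at 225 ± 42.6 CPM in ALDHbr lungs and 148 ± 39.7 CPM in ALDHdim lungs (SD, n = 5 each), a log2 difference of 0.60 (SE 0.18) with an adjusted p of 0.99925. Nkx2-1, the lung lineage factor, differed by −0.26 (SE 0.16), Rxra, the partner of several nuclear receptors, by −0.32 (SE 0.19) and Sox2, a factor of airway lineage, by −0.26 (SE 0.17).

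Among neighbouring cell types of the airway, 14 of 14 further club cell markers were tested, with 3 higher and 11 lower estimates, 0 past the threshold and a median of −0.13. Gabrp, a subunit of a GABA receptor, differed by −0.34 (SE 0.21) and Tff2, a trefoil factor, by −0.60 (SE 0.47). The 12 ciliated cell markers had 2 higher and 10 lower estimates, 0 past the threshold, 1 at an unadjusted p under 0.05 and a median of −0.20. That 1 was Foxj1, the master factor of motile cilia, which differed by −0.33 (SE 0.14). The list of goblet and mucosal secretory genes had the lowest median, with 0 higher and 6 lower estimates of 6 tested, 0 past the threshold, 3 at an unadjusted p under 0.05 and a median of −0.67. Over all tested genes 3.71% had an unadjusted p under 0.05 and 48.1% a lower estimate. The lists were chosen with earlier results of these data known, so the counts in them are a description and not a test. Muc5b, the gel-forming mucin of airway secretory cells, averaged 13.8 ± 3.67 CPM over ALDHbr lungs and 22.7 ± 8.28 CPM over ALDHdim lungs (SD, n = 5 each), and Bpifb1, a secreted antibacterial protein of airways, 83.0 ± 39.5 CPM over ALDHbr lungs and 127 ± 46.6 CPM over ALDHdim lungs. Reg3g, a secreted antibacterial lectin, differed by −0.63 (SE 0.20) and Pigr, the receptor that carries IgA across epithelium, by −0.67 (SE 0.19). These genes passed no threshold in the test over all genes, and their adjusted p was 0.99925 as well. The summed goblet and mucosal level ran from 337 to 1194 CPM in ALDHbr and from 681 to 1411 CPM in ALDHdim lungs, so the groups overlapped. By the mean of centred log2 CPM over its genes, the list ran from 0.083 to 0.50 in ALDHdim lungs. ALDHbr 1, at 0.16, lay within that range, and the other ALDHbr lungs lay below it, at −0.95 to −0.14. No basal cell marker of 5 had enough counts to be tested, with sums of 7.82 to 37.5 CPM in ALDHbr and 10.1 to 22.7 CPM in ALDHdim lungs.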

How the data were processed

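Gene expression was measured by BRB-seq in 10 mouse lung samples, 5 of ALDHbr and 5 of ALDHdim recipients. The authors deposited a table of counts, in whole numbers without normalization. Per the submitters' processing notes the tools were HISAT2 2.2.1, featureCounts 2.0.1, Trim Galore 0.6.7, UMI-tools and DESeq2, and the builds GRCm38 and GRCh38, with no roles given. No source used here states whether counts were collapsed by UMI. If they were not, PCR copies add counts without adding molecules.

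Genes were kept by edgeR's filterByExpr (minimum count 10, group as design), scaled by TMM and tested with glmQLFit (robust) and glmQLFTest in edgeR 4.0.16 and R 4.3.3, over all 10844 kept genes with p-values adjusted by Benjamini-Hochberg and called under 0.05. A fold change has ALDHbr on top, its standard error was taken as its size over the root of F, and log2 CPM carries a prior count of 2. Correlations used 100000 permutations, and the ratio of Scgb1a1 to Cyp2f2 an exact permutation over 252 assignments. The edgeR step was tested on simulated counts, and how often it called a given fold there is not reported here. The correlations and the ratio test were not tested in that way. Gene positions come from GENCODE M21 (GRCm38), where each of the 8 identifiers lay on the chromosome the table gives. Promoters come from RefSeq (GRCm38.p6).

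The 8 genes and all lists were chosen with earlier results of these data known. Beyond the 8, genes named are the up to 4 of smallest p in each list, other members of the same families (1 is not reported here), and the 5 most alike to Scgb1a1, Cyp2f2 and Fmo2. Alternatives were other scalings, other filters (none, or a mean count of 10), DESeq2 1.42.0, limma-voom (limma 3.58.1), the replicate number as a block, leaving out libraries, and other makeups of the scores. Plots used matplotlib 3.10.9.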

Additional observations from a re-analysis of the deposited data

Results flagged for a closer look

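Within each group of 5 lungs, the highest or lowest lung was looked at for an unusually large gap to its neighbour as a share of the group's range, in 44 sets of values (the 8 genes, the scores and ratio, and the marker sums). There were 2 such values, against 2.2 expected, since chance gives about 1 in 20. Scgb1a1 was at 44491.5 CPM in ALDHbr 2, against 15252 to 23266 CPM in the other ALDHbr lungs, a gap of 0.726 of the range, and this was the library with the fewest counts. Cyp2b10 was at 269 CPM in ALDHdim 2, against 120 to 150 CPM in the other ALDHdim lungs, a gap of 0.80 of the range.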

How the results depend on the processing

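The count of 0 of the 8 genes past the threshold held in all 19 alternatives to the test. For all genes the count was 0 in 18 of them and 185 with no low-count filter. The median log2 fold change of all genes was 0.28 with DESeq2 and 0.22 with no filter, where 33347 genes entered, and 0.011 in the test as reported. Signs of estimates turned in several. The log2 fold change of Scgb1a1 was −0.096 with no low-count filter, −0.0028 with DESeq2, −0.12 with limma-voom and −0.18 without both number 2 libraries. Without both number 2 libraries Scgb3a2 was at −0.010, Cyp4b1 at 0.15 and Cyp2b10 at 0.029, and without both ALDHbr 3 and ALDHbr 5 Cyp2f2 was at 0.12, Cyp4b1 at 0.26, Cyp2b10 at 0.25 and Por at 0.072. Leaving out each library in turn gave −0.36 to 0.19 for Scgb1a1, −0.67 to −0.045 for Scgb3a1, −0.056 to 0.59 for Scgb3a2, −0.53 to 0.093 for Cyp2f2, −0.45 to 0.34 for Cyp4b1, −0.28 to 0.20 for Cyp2b10, 0.024 to 0.44 for Fmo2 and −0.44 to −0.035 for Por. The log2 ratio of Scgb1a1 to Cyp2f2 differed by 0.11 to 0.32 between groups over the same omissions, and the score difference by −0.097 to 0.26. The count of 22 correlated pairs was 6 without both number 2 libraries and within 1.5 times of 22 in the other 4 alternatives. Of the goblet and mucosal genes, Pigr (−0.73, adjusted p = 0.030) and Reg3g (−0.68, adjusted p = 0.011) passed with no low-count filter, edgeR's quasi-likelihood test over 33347 genes, and in no other alternative. The cause of these shifts was not tested.

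The same replicate numbers occur in both groups. Deviations from the group means correlated between same-numbered libraries by 0.062 to 0.37, and 7 of 10 libraries correlated best with their own number. Number 1 lay under the limit of 0.1 used here, and for that reason alone the numbers were not treated as pairs. Whether same-numbered libraries share an origin is not stated in the labels and was not tested. With the replicate number as a block, 0 genes passed and Scgb1a1 differed by −0.036. The unadjusted p of edgeR's quasi-likelihood test was smaller with the block for each of the 8 genes. It was 0.092 against 0.66 for Cyp2f2 and 0.063 against 0.41 for Por. Genes at an unadjusted p under 0.05 numbered 727 under the block, against 402 without it, and Scgb3a1 was then among them (−0.34, adjusted p = 0.73 with edgeR's quasi-likelihood test), the only 1 of the 8 genes. The lowest counts of Por and Cyp2b10, the least abundant of the 8 genes, were 102 and 90 in a library, with standard errors of 0.29 and 0.32, against 0.32 for Scgb1a1, the most abundant.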
